A study of Mus musculus with 18 samples.

Results

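The decay assay followed the loss of messenger RNA from cultured mouse myotubes after transcription had been blocked with actinomycin D, and gave 1 half-life for each mRNA isoform. An isoform is a combination of 1 5′ end and 1 3′ end. Members were all isoforms of nuclear chromosomes with a pooled coverage of at least 30 counts and a half-life above 0, whether or not their untranslated regions (UTRs) were listed. There were 5247 members among the 6636 isoforms of the decay table, and they held 98.8% of its coverage. Left out were 43 mitochondrial isoforms, 1294 nuclear isoforms under the coverage minimum, 44 without a half-life and 8 with a half-life of 0 or below. The whole series lists 13759 isoforms in 2 tables, one for decay and one for polysome profiling.

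All cells were primary myoblasts of wild-type (WT) female mice, isolated from the gastrocnemius, a calf muscle. They were differentiated into myotubes over 24 h by 1 µM SCH772984, an inhibitor of the kinase ERK. Every group then received actinomycin D at 7.5 µg/ml, and samples were collected after 0, 3, 6 and 12 h. Each of the 4 times had 3 libraries, 1 from each of 3 mice, 12 in all. The 0 h cells are the only reference, there is no culture without the drug at later times, and all groups share the ERK inhibitor treatment.

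Actinomycin D binds DNA and stops RNA polymerase, so that no new mRNA replaces what is degraded. Most mRNAs are first shortened at their poly(A) tail and then lose their cap before the body is digested. mRNAs of regulators such as transcription factors and early response proteins are known for fast turnover, and mRNAs of structural and housekeeping proteins for slow turnover. TIF-seq2 reads both ends of the same molecule, so alternative starts and alternative polyadenylation sites of a gene are measured as separate isoforms.

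The deposited table gives 1 half-life and 1 coverage per isoform, pooled over all times and mice. Values of a single mouse or time are not part of it, so half-lives carry no replicate error and no difference between isoforms could be tested. The table names no unit for it. Since the labels count time in hours, values are set against 12, the last time, on that reading. Coverage sums the counts of every time, so coverage and half-life rest on the same reads.

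The ends that carry the results are shown first. Of 4997 members with a listed 3′ UTR of at least 30 nt, 64.7% had AATAAA in their last 30 nt, 14.6% had ATTAAA but not AATAAA, and 20.7% had neither of these polyadenylation hexamers on the transcribed strand. The median half-life was 10.7, 10.9 and 10.9 in these sets. The 3 named shared 3′ ends with the widest spread of half-life at high coverage ended as follows, with the hexamer in capitals.
Tnni1: tcacaagttctccATTAAAaaaaaaaaaag
Des: ggacagaaacaatAATAAAgagacaagcac
Acta2: ttaaaAATAAAtcagacatgtgctaccctt

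The next sequences are pairs of 3′ ends that were joined to the same 5′ end, again as the last 30 nt. They differed most in half-life when only isoforms with a coverage of at least 300 were grouped. Any less covered isoforms of these 5′ ends were left out. The first line of each pair is the 3′ end farther downstream, with the longer 3′ UTR.
Cdc34, 3′ UTR of 337 nt, half-life 11.8: gtgtgaaataaAATAAAatagctttctgag
Cdc34, 3′ UTR of 36 nt, half-life 28.2: tccctgaAATAAActtacaaattttacctc
chr4:63463113-63468937, 3′ UTR of 582 nt, half-life 8.04: atttaaaagtaaaaatttgtcttgctcttc
chr4:63463113-63468463, 3′ UTR of 108 nt, half-life 14.1: ctgttctggaaggcATTAAAttatttctct
chr1:161068583-161078736, 3′ UTR of 708 nt, half-life 12.1: ttgaggttcaacaAATAAAatcctgatcag
chr1:161069122-161078736, 3′ UTR of 169 nt, half-life 20.6: actactgggtcATTAAAtggaaatggcacc
chr11:70535026-70537810, 3′ UTR of 566 nt, half-life 10.7: aATTAAAgaaagtcacctactggttttatg
chr11:70535151-70537810, 3′ UTR of 441 nt, half-life 17.9: tgaggacttAATAAAttggattgaaatacc
Of these 8 ends, 7 held a hexamer, and the one without it was the downstream end on chromosome 4. Positions here and below are of the mouse build GRCm39, with the 5′ end on the left for the + strand and on the right for the - strand.

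Half-lives of the 5247 members lay close together. The median was 10.8, with a 95% order-statistic interval of 10.7 to 10.96 that covers only the choice of isoforms. The 5th percentile was 6.50, the 95th was 19.9, and the ratio between them was 3.07. If decay is taken as a single exponential, 46.4% of an mRNA with the median half-life is left at 12 h, 27.8% at the 5th percentile and 65.9% at the 95th. The values ran from 0.917 to 6666. Members grouped into 3034 loci, of which 1081 held more than 1 isoform, and the most covered isoform of each locus had a median of 10.9. Weighted by coverage the median was 12.4, above the unweighted 10.8. This weighting is not independent of half-life, as coverage sums the counts of every time.

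The most covered mRNAs were alike. The 10 most covered isoforms had half-lives from 11.5 to 13.1. Tpm2, which encodes beta-tropomyosin, had 12.8 at a coverage of 46421. Des, the intermediate filament protein desmin, had 12.4 at 43471, and Acta1, skeletal alpha-actin, had 12.5 at 42409. These 3 muscle structural mRNAs lay close together. Tnni1, the slow skeletal troponin I, had 12.0 at 36917, Actc1, cardiac alpha-actin, had 11.5 at 26123, and Tecr, an enzyme of fatty acid elongation, had 12.8 at 21740. The other 4 had no gene name here and lay at 12.3, 12.8, 12.6 and 13.1.

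Gene names were not in the table. They were found by matching the first 20 nt of the 5′ UTR to RefSeq promoter windows, and were passed on to isoforms with the same 3′ end. This named 2488 members (47.4%) of 1314 genes, which hold 51.5% of the members' coverage. Named members had a median half-life of 10.9 and unnamed ones 10.8.

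Coverage went with both the level and the spread of half-life. Members with a coverage of 30 to 59 (1657 isoforms) had a median of 9.61 and a ratio of 95th to 5th percentile of 3.90. Those from 100 to under 300 (1310 isoforms) had 10.8 and 2.78. Those of 1000 and more (608 isoforms, 73.6% of all member coverage) had 12.3 and 1.62. The share of members between 9 and 15 rose along these classes from 43.9% at 30 to 59 to 90.1% at 1000 and more. Across all 5247 members the Spearman correlation between half-life and coverage was 0.284, and across the 1412 members from a coverage of 300 it was 0.110. Within single coverage classes it was between -0.0218 and 0.0830. These correlations are descriptions over isoforms that share reads, libraries and, in many loci, exons. At the coverage minimum itself nothing broke: the 257 members with 30 to 32 counts had a median of 9.15, and the 352 isoforms just outside, with 27 to 29 counts, had 9.13.

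**Figure D1:**
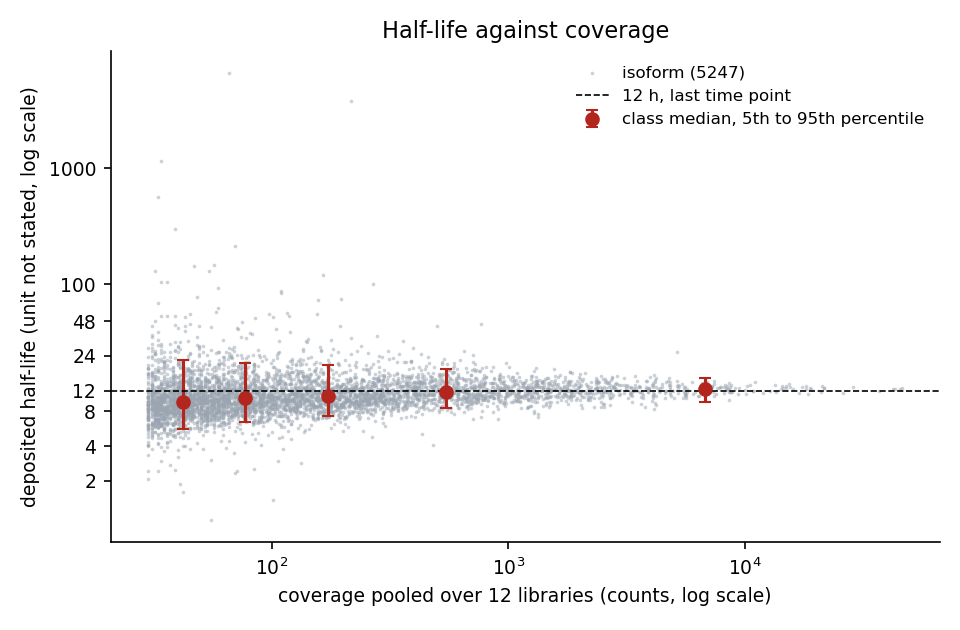
Deposited half-life (y axis, log scale, unit not stated) against coverage pooled over the 12 libraries (x axis, log scale) for 5247 isoforms in grey, with the median and the 5th to 95th percentile of 5 coverage classes in red and the last time point, 12 h, dashed. The class medians climb from 9.61 to 12.3, and the cloud narrows toward high coverage.

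Many half-lives lay beyond the time that was followed. A half-life above 12 means that more than 50% would be left at the last time. It was listed for 1894 members (36.1%), which held 58.4% of the coverage. The share was 26.3% at a coverage of 30 to 59 and 55.9% at 1000 and more. A half-life above 24, with more than 70.7% left at 12 h, was listed for 146 members (2.78%), and 68.5% of these had a coverage under 100 against 48.1% of all members. Of the 35 members above 48, none had a coverage of 300, and the highest was 269. Annotated isoforms made up 34.9% of the members above 24 and 54.7% of all members.

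The extreme values came from isoforms with a coverage under 300, and of the 35 members above 48 a coverage under 100 was held by 68.6%. The 3 half-lives above 1000 were 6666 for chr2:26951688-26952214 at a coverage of 66, 3825 for Arhgdib at 216, and 1159 for Smyd1, a muscle histone methyltransferase, at 34. The first of them shares its 3′ end with the isoform chr2:26951688-26962169, whose half-life was 12.3 at a coverage of 45636. These values were chosen for their size. At the other end, 160 members had a half-life below 6 and 85.6% of them had a coverage under 100. The shortest were 0.917 for Id3, an inhibitor of myogenic bHLH transcription factors, at a coverage of 55, and 1.36 for Chac1, a glutathione-degrading enzyme of the stress response, at 101. Spsb2 followed with 1.59 at 42. Of the named ones after it, Ccdc71 had 2.10 at 30, Nrm 2.41 at 30 and Ier5l, an early response gene, 2.43 at 71.

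Among the 1412 members with a coverage of at least 300, half-lives ran from 4.12 to 45.0. The lowest belonged to chr7:46025898-46028520, with a coverage of 481, and to chr8:105354704-105357921 (5.06, coverage 430) and chrX:10583721-10585932 (5.91, coverage 302), all unnamed. All 3 ended within 3 nt of an annotated 3′ end. The named ones among the 10 shortest were Tubb2a, a beta-tubulin, at 6.83 (coverage 904), Snapc2, a subunit of the complex that transcribes small nuclear RNA genes, at 6.94 (353), and Wbp2, a transcription coactivator, at 7.07 (370). The other 4 lay at 6.85, 7.09, 7.11 and 7.17. Of the 10 shortest, 8 had both ends at annotated positions, as had 928 of all 1412 members at this coverage.

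Of the 10 longest at this coverage 4 had both ends at annotated positions, against the same 928 of 1412 members. H2aj, a replication-independent histone H2A, had 45.0 at a coverage of 764, with a 3′ end 1000 nt upstream of the annotated one and no listed 3′ UTR. A Tnni1 isoform had 43.6 at 498 and a Des isoform 32.5 at 357, both with starts inside the annotated transcript. Cdc34, a ubiquitin-conjugating enzyme, had 28.2 at 397. Tmem258, a subunit of the oligosaccharyltransferase, had 26.6 at 309, with a start 204 nt downstream of the annotated one. The remaining 5 were unnamed and ran from 24.3 to 26.6. At a coverage of 1000 and more the values ran only from 7.17 to 26.1. Of the named genes there, Myh3, the embryonic myosin heavy chain, had 7.60 and Ankrd23, a titin-binding ankyrin protein, 7.70, while Tmem176a, a membrane protein, had 18.99.

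Genes were then read by lists of known function, each gene by its most covered isoform. Cytosolic ribosomal protein mRNAs were long-lived: 34 genes had a median of 12.8, and 25 of them were above 12, against 466 of 1314 named genes (35.5%). Over all 70 isoforms of these genes the median was also 12.8. Rplp2 had 12.6 at a coverage of 18216, Rpsa 12.9 at 17576, Fau the highest at 15.4 and Rps12 the lowest at 8.87 among those with a coverage of at least 100. Because these mRNAs are abundant, they are also set beside isoforms of like coverage: 26 of the 34 were above the median of their coverage class, by a median of 0.07 on the log2 scale.

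The contractile apparatus had a median of 12.0 over 25 genes and of 11.1 over their 265 isoforms, the most of any list. Of the 25 genes 13 were above 12. Myh3 was lowest with 7.60 at a coverage of 1342, and Actn2, the Z-disc alpha-actinin, followed with 9.25 at 2539. Myl6, a myosin light chain, was highest among those with a coverage of at least 100, with 14.4 at 1278. Beside isoforms of like coverage the contractile genes stood at the median, with 13 of 25 above it. The 7 glycolytic genes had a median of 12.1 with little spread: Pfkm, phosphofructokinase, had 9.96, Aldoa, aldolase A, 11.2, Tpi1, triosephosphate isomerase, 12.8, and Eno3, muscle enolase, 12.8.

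The lists for protein turnover and mitochondria lay in the middle. Proteasome subunits (16 genes) had a median of 11.95, from 7.93 for Psma4 to 15.2 for Psma6 at a coverage of at least 100. Nuclear genes of oxidative phosphorylation and its assembly (37 genes) had 11.5, with 15 above 12. Their most covered gene, Uqcrc1 of complex III, had 11.7, and Uqcrfs1, the Rieske protein of the same complex, had 7.59. Mitochondrial ribosomal proteins (23 genes) had 11.2, with Mrpl28 at 12.8, Mrpl16 at 8.27 and Mrpl48 at 20.3. Translation factors (11 genes) had 11.3, with Eif3k at 14.0, Eef2 at 11.3 and Eif3m at 8.16. Within each of these 4 lists the highest gene was over 1.5 times the lowest.

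The list of early response regulators lay lowest. Of 51 immediate-early and stress genes on the list, 6 were matched, with a median of 7.66. Sertad1, a transcriptional coregulator, had 2.95 at a coverage of 106, Trib3, a pseudokinase of the stress response, 6.21 at 184, and Ddit3, the stress transcription factor CHOP, 9.79 at 331. Gadd45g went against the others with 14.97 at 577. Of the 6 genes 5 were below the median of their coverage class, with a median difference of -0.53 on the log2 scale. Splicing and RNA-binding proteins (20 genes) had a median of 9.41 with 3 above 12. Sf3a2, a splicing factor, had 6.62 at a coverage of 111, Hnrnpc 9.17 at 334 and Snrpd2, a core snRNP protein, 14.5 at 1418. Their median coverage was only 104, and 14 of the 20 were at or below the median of their coverage class.

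Chaperones (15 genes) had a median of 10.1. Hspa5, the chaperone BiP of the endoplasmic reticulum, had 6.52 at a coverage of 274, Hspb8, a small heat shock protein, 8.46 at 1132, and Cct5, a chaperonin subunit, 16.8 at 145. In the list of myogenic regulators 6 genes were matched, with a median of 10.9. Hes6, a promyogenic bHLH cofactor, had 13.5 at 13521, Myog, the transcription factor myogenin, 8.73 at 2316, and Ccnd3, cyclin D3, 10.5 at 2241. Of the 6 only Hes6 was above 12, and Id3, given above with 0.917, was the lowest. The 5 extracellular matrix genes had a median of 10.3, and Serpinh1, the collagen chaperone, had 9.83 at 4040. The 6 histone genes had 8.16, with H3f3b at 7.65 and H2aj far above at 45.0. The 2 matched cell cycle genes, Pcna and Mcm7, had a coverage under 100 and a median of 8.25.

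**Figure D2:**
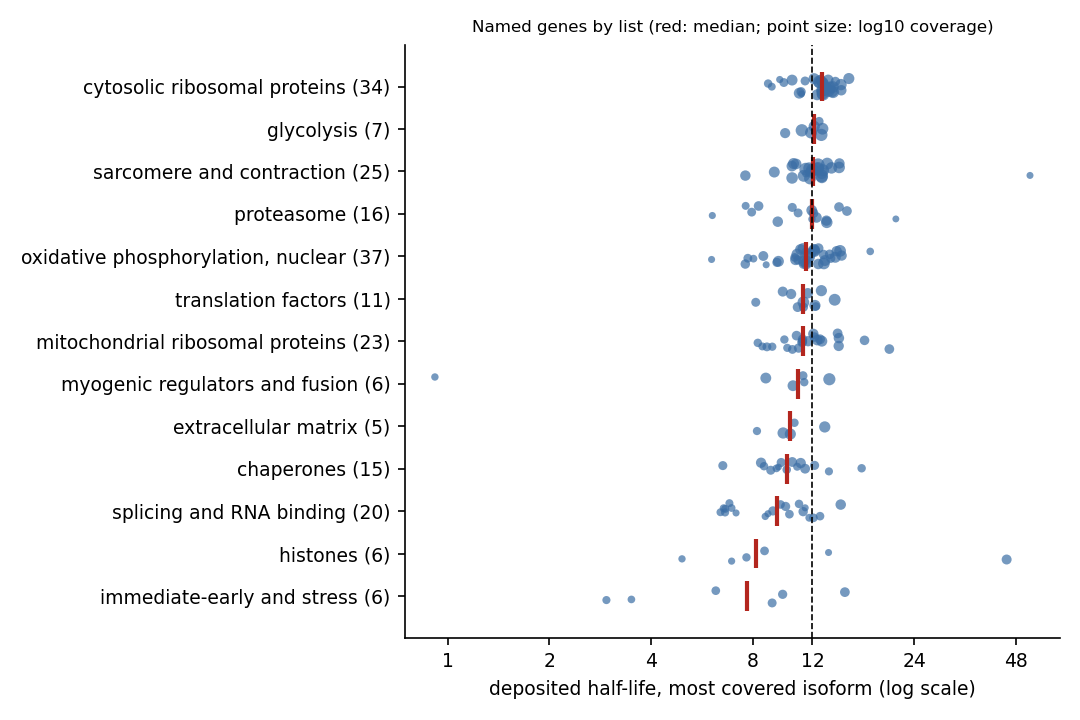
Deposited half-life of the most covered isoform of each named gene (x axis, log scale, unit not stated) for 13 lists with at least 5 genes (y axis, number of genes in brackets), with the list median in red and 12, the last time in h, dashed. Ribosomal protein genes gather around 12.8 and immediate-early and stress genes reach down to 2.95, and most lists overlap.

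The names also served to check the label of the cells. Of 19 myotube markers 12 were matched, among them Myog, Myh3, Ckm and Cav3, and they held 8.31% of the table's coverage. Of 4 myoblast markers only Cdh15 was matched, with 0.118%. None of the markers fixed for fibroblasts (8), endothelium (4), immune cells (5), adipocytes (3) and Schwann cells (3) was matched. A gene without a match can still be in the table, since under 50% of members bear a name. In such bulk RNA, fewer cells of a type and less RNA per cell cannot be told apart.

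Next, the spread between isoforms of 1 gene was read from shared ends. There were 761 3′ ends joined to more than 1 start, with 2348 isoforms, and 547 5′ ends joined to more than 1 3′ end, with 1227 isoforms. Distinct 3′ ends lay at least 12 nt apart and distinct 5′ ends at least 14 nt. Most such groups were small: 494 of the 761 and 448 of the 547 held 2 isoforms.

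Starts that share a 3′ end differed in half-life by a median of 1.37 between the highest and the lowest of a group. In 40.5% of groups the ratio was over 1.5 and in 19.6% over 2. The group's isoforms lay on both sides of 12 in 46.0%. The SD of log2 half-life within groups was 0.55, near the 0.60 over all these isoforms, and 17.2% of the variance lay between groups. With only isoforms of a coverage of at least 300 kept, 81 groups remained with a median ratio of 1.15. Of these, 3.70% were over 2, and 39.7% of the variance lay between groups. Isoforms of a shared 3′ end were thus more alike where they were counted more often.

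Polyadenylation sites that share a 5′ end gave like numbers. The median ratio was 1.33, with 33.5% of groups over 1.5 and 12.8% over 2. At a coverage of at least 300 it was 1.157 in 67 groups, with 1.49% over 2 and 22.7% of the variance between groups. As a scale, any pair of members differed by a median ratio of 1.34, pairs with the same 3′ end by 1.28, and pairs with the same 5′ end by 1.28. At a coverage of at least 300 these were 1.20, 1.13 and 1.15. Sharing an end therefore went with a small narrowing of the difference.

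The order within pairs differed by the kind of shared end. With the same 3′ end, the isoform with the longer genomic span had the shorter half-life in 50.8% of 5594 pairs, and in 53.0% of 1388 pairs with a coverage of at least 100. With the same 5′ end, where a longer span is a more distal polyadenylation site, it was 57.2% of 856 pairs and 66.0% (171 of 259) at a coverage of at least 100. For ends 1000 to 5000 nt apart at that coverage it was 28 of 36 pairs (77.8%). For ends over 5000 nt apart it was 13 of 17 pairs at that coverage but 45 of 94 (47.9%) over all members. Pairs of 1 group share isoforms, so they are not independent and no test was made. The more covered isoform had the longer half-life in 58.3% of pairs with the same 3′ end and 54.4% with the same 5′ end.

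The medians of the largest groups of starts ran from 7.83 to 13.4, with ranges that overlapped. Myh3 had 28 starts joined to the 3′ end at chr11:66993110, with half-lives from 5.72 to 14.6 around a median of 7.83, and only 1 of them above 12. An unnamed group on chromosome 11 that ends at 67199457 had 18 isoforms from 4.88 to 11.4 around 8.00, with 0 above 12. Both groups lay below the median of all members almost throughout. Actn2 had 27 isoforms from 7.22 to 19.8 around 9.25, with 3 above 12. Eef2, the elongation factor 2, had 28 isoforms from 5.40 to 28.6 around 11.3, with 12 above 12. Aldoa had 23 isoforms from 7.45 to 29.4 around 10.7, and Atp2a1, the calcium pump of the sarcoplasmic reticulum, 18 isoforms from 5.89 to 15.7 around 10.3. An unnamed group on chromosome 19 that ends at 4911251 had the highest median, with 25 isoforms from 6.33 to 28.0 around 13.4 and 17 above 12. The median coverage of these isoforms was only 75, and the most covered one had 11.5 at a coverage of 5589.

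**Figure D3:**
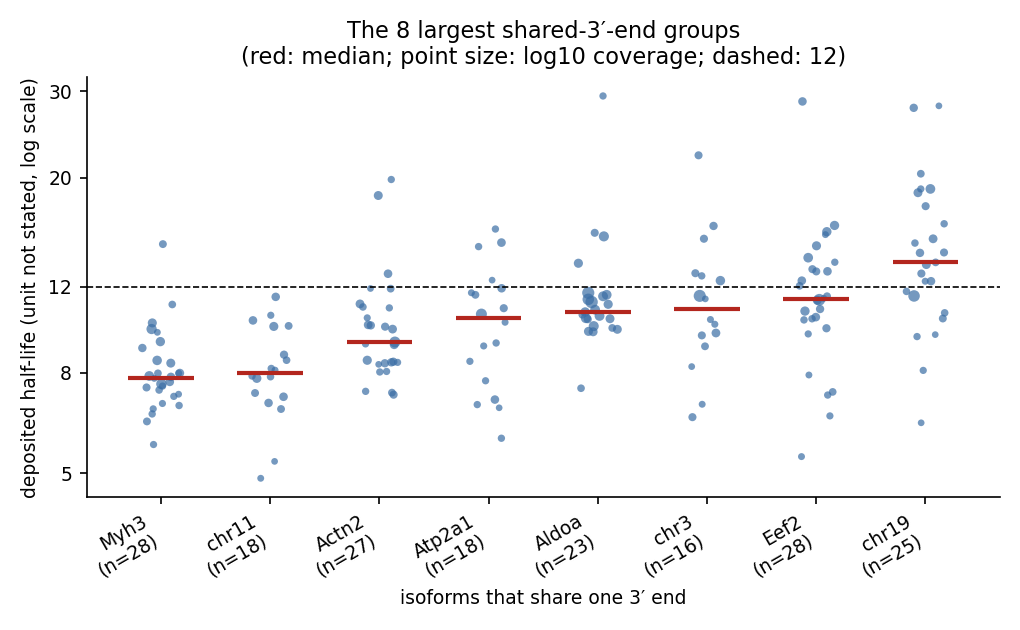
Deposited half-life (y axis, log scale, unit not stated) of every isoform of the 8 largest groups that share one 3′ end (x axis; unnamed groups by chromosome), with the group median in red, point size by log10 coverage and 12 dashed. Medians run from 7.83 for Myh3 to 13.4 for the group on chromosome 19, and the ranges of all 8 groups overlap.

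Of the 5 widest groups at high coverage 3 were named, and each of these held 1 isoform apart from the rest. The groups hold only isoforms with a coverage of at least 300, and any less covered isoforms of the same 3′ ends were left out. Distances of a start from the annotation are the table's own, to an annotated start it does not name. For Tnni1 the annotated start had 12.0 at a coverage of 36917 and a start 133 nt inside an annotated transcript had 13.1 at 919. The remaining start, 2508 nt inside, had 43.6 at 498, 3.63 times the lowest. Des had 10 starts of that coverage for the 3′ end shown above, with half-lives from 11.5 to 32.5. Its most covered isoform had 12.4, and 8 others lay between 11.5 and 16.9. The highest, 5010 nt inside the annotated transcript, had the lowest coverage of these 10, 357. The last start, only 671 nt from the 3′ end, had 15.2 at a coverage of 2524. Acta2, the smooth muscle alpha-actin that young myotubes also express, had 10.96 at 4080, 12.9 at 15534 and 11.6 at 368, and its innermost start had 21.4 at 368. Within these groups cut at 300, the isoforms that stood apart were thus at or near the lowest coverage. The part of counting error was not tested.

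**Figure D4:**
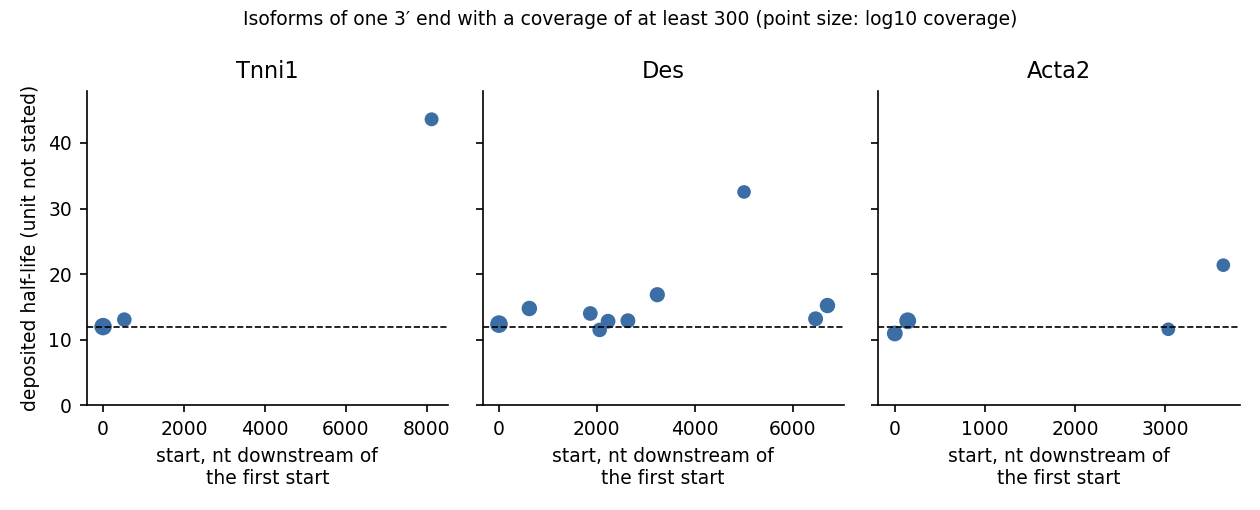
Deposited half-life (y axis, unit not stated) against the position of the start, in nt downstream of the first start (x axis), for the isoforms of Tnni1, Des and Acta2 with a coverage of at least 300 that share one 3′ end; point size is log10 coverage and 12 is dashed. In each gene 1 start far inside stands above the rest, at 43.6, 32.5 and 21.4.

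The other 2 of the 5 widest groups, also limited to isoforms with a coverage of at least 300, were unnamed. The group that ends at chr7:126813459 had 6 starts with 12.8, 14.0, 22.5, 16.1, 16.5 and 10.6 from the first to the last start. The group that ends at chr6:125138739 had 6.85 for the annotated start, 11.3 for a start 3718 nt inside and 12.4 for one 7156 nt inside. Here the full-length isoform was the shortest lived and also the most covered of the group, with 708 counts against 615 and 503. Among isoforms with a coverage of at least 300, the narrowest group was chr2:26951688-26962169 with an inner start (12.32 and 12.29). Mien1 (15.999 and 16.106) and Dnpep, an aminopeptidase (11.9 and 11.8), followed. Less covered isoforms of these ends were left out. They include 6666 at a coverage of 66 on chromosome 2, and 9.02 at 103 and 9.39 at 128 for Dnpep.

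Of the 5′ ends, Cdc34 had the widest group at high coverage. Its isoforms with both 3′ ends shown above began at the same position, and half-lives were 11.8 at a coverage of 402 and 28.2 at 397, a ratio of 2.39. In the unnamed groups the ratio was 1.75 on chromosome 4, 1.70 on chromosome 1 and 1.67 on chromosome 11. In all 4 the isoform with the shorter 3′ UTR had the longer half-life. The fifth group, chr8:23629059, had 5 members, of which 3 had a coverage of at least 300. These 3 had 11.6, 7.11 and 9.64 from the most proximal to the most distal polyadenylation site. The middle of these 3 was lowest, also among all 5 members. Mtfr1l, a regulator of mitochondrial shape, was among the narrowest at that coverage, with 10.1 and 10.4. As these groups were chosen for their spread, the ratios describe them and are no evidence on other genes.

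Genomic span, the distance between both ends with introns included, ran from 304 to 1984010 nt with a median of 8303. The median half-life was 11.7 for spans of 1000 to 2000 nt (413 members), 11.5 for 2000 to 5000 (1107), 10.6 for 10000 to 20000 (1130) and 9.65 for 50000 to 100000 (180). It was 10.6 again above 100000 nt (151). Over members with a coverage of at least 300 it fell from 13.2 up to 1000 nt (55 members) to 12.6, 11.8, 11.1 and 10.9 for 2000 to 5000, 5000 to 10000, 20000 to 50000 and 50000 to 100000 nt. There the share above 12 was 87 of 121 members for 1000 to 2000 nt and 53 of 173 for 20000 to 50000 nt. The Spearman correlation with span was -0.145 over all members, -0.237 over the 1412 from a coverage of 300 and -0.318 over the 608 from 1000. Span and coverage were themselves related, with a Spearman correlation of -0.0762 over all members, -0.145 from a coverage of 300 and -0.227 over the most covered isoform of each locus. Over the last set the correlation of half-life with span was -0.179.

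**Figure D5:**
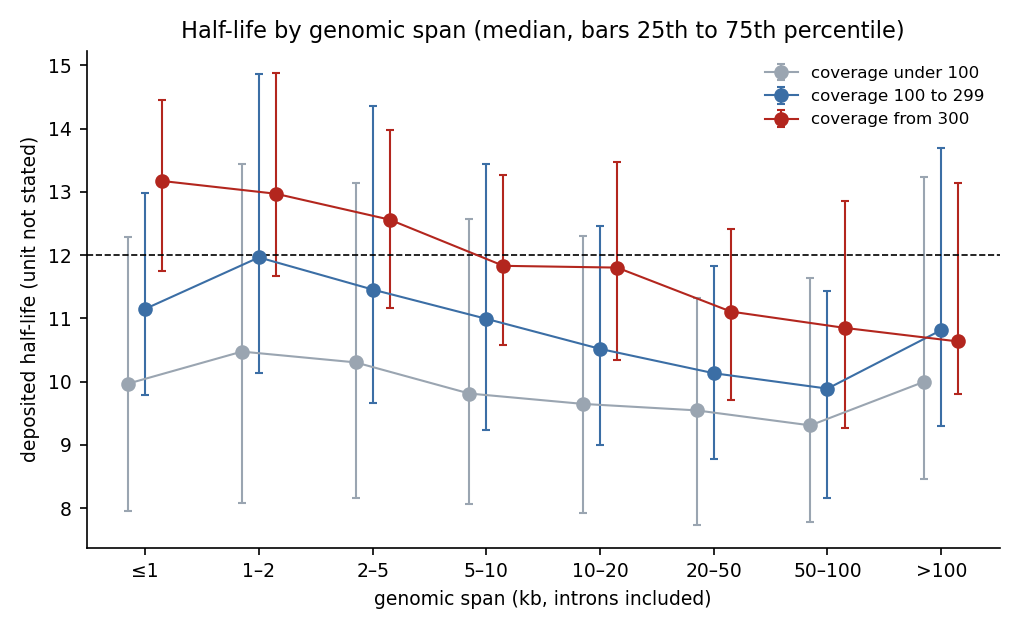
Median deposited half-life (y axis, unit not stated; bars from the 25th to the 75th percentile) by genomic span in kb with introns included (x axis) for 3 coverage classes, with 12 dashed. At a coverage from 300 the median falls from 13.2 to 10.6 along the span classes, and the bars of neighbouring classes overlap.

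A few spans were longer than most genes. There were 35 members over 500000 nt, with a median of 11.9 and a range from 7.21 to 53.3. The 5′ end of Des at chr1:75336976 was joined to a 3′ end at 76878282, 1541307 nt away, with a half-life of 42.8 at a coverage of 55. The 3′ end of Acta1 was joined to a start that gave a span of 1971304 nt, with a half-life of 10.6 at a coverage of 34. The pooled table does not show whether ends this far apart belong to a single mRNA, which was not tested, so these half-lives may not be those of an mRNA. At the other end 55 members spanned up to 500 nt, with a median of 10.6.

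End classes compare each end with the annotation, and an end within 100 nt of the annotated one counts as annotated. The 2868 annotated isoforms had a median of 10.8. Starts inside the annotated transcript (946) had 10.7, 3′ ends inside it (725) 10.8, and isoforms with both (254) 11.03. Extended 3′ ends (191) had 10.4 and extended 5′ ends (134) 11.1. The medians of these 6 classes lay between 10.4 and 11.1, and the classes overlapped almost entirely, with 5th percentiles from 6.29 to 6.92 and 95th percentiles from 18.5 to 22.5. At like coverage the order of inner starts and annotated isoforms turned: from 100 to under 300 counts inner starts had 11.6 (219) and annotated isoforms 10.6 (759), and from 300 they had 12.3 (160) and 12.0 (928). The 3 rarer mixed classes had 12.3 (extended at both ends, 13), 11.8 (inner start with extended 3′ end, 14) and 9.86 (extended 5′ end with inner 3′ end, 9). Isoforms extended at both ends had a median span of 699291 nt. The upper tail differed too: 1.78% of annotated isoforms were above 24, against 4.55% of those with an inner start and 3.59% with an inner 3′ end. At a coverage of at least 300 these were 4 of 928, 3 of 160 and 2 of 187 isoforms.

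How far an end lay from the annotation made little difference for 3′ ends. Those cut short by 100 to 300, 300 to 1000, 1000 to 5000 and over 5000 nt had medians of 10.7, 10.7, 10.9 and 10.8. For inner starts the medians were 11.2, 10.5, 11.4 and 9.97 over the same distances, without a steady direction. Isoforms extended by over 1000 nt had 11.4 at the 5′ end (52) and 10.4 at the 3′ end (38).

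The 93 isoforms that the table labels intergenic stood somewhat higher, with a median of 11.9. At a coverage of 30 to 99 their median was 10.6 (56 isoforms) against 9.69 for annotated isoforms, and from 100 to under 300 it was 11.3 (17) against 10.6. From 300 it was 13.3 against 12.0, with 18 of 20 isoforms above 12. These 20 came from only 10 loci. They were short: 71.0% of intergenic members spanned up to 2000 nt, against 12.0% of all members. The most covered was chr6:57994470-57994961 with a half-life of 13.3 at a coverage of 8772. Of the 5 most covered, 3 shared the 3′ end at chr7:142129269, with 13.0 at a coverage of 6584, 14.5 at 2595 and 12.7 at 2361. The remaining one, chr9:19839131-19839619, had 13.3 at 3141. The values ran from 2.49 at a coverage of 39 to 41.8 at a coverage of 40. Intergenic isoforms list no UTR, so none could be matched to a gene name by its own sequence. Whether known genes lie at their positions was not examined.

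Over all members, isoforms with a missing UTR had a median like those with both, at a lower median coverage (60 against 116). Both UTRs were listed for 4822 members with a median of 10.8, and at least 1 was missing for 425 with 10.9. Isoforms without only the 5′ UTR (236) had 10.4 and those without only the 3′ UTR (84) had 10.8. The tail above 24 was larger where a UTR was missing, with 6.12% against 2.49%. Of the 12 isoforms outside the intergenic class with neither UTR, 8 were above 12 and the median was 12.7. Their median span was 1009849.5 nt, and ends this far apart may not belong to a single mRNA. At a coverage of at least 100 the medians were 12.2 with a missing UTR and 11.6 with both. At a coverage of at least 300 the 47 members with a missing UTR had a median of 13.3 against 12.0 for the 1365 with both, and 20 of the 47 were intergenic. The 13 without only the 5′ UTR had 14.1, the 13 without only the 3′ UTR 12.9, and the 1 other isoform, with a span of 1390497 nt, 7.21. Outside the intergenic class the most covered was chr8:71348023-71350056 with 12.6 at 21681. It was followed by a Des isoform of 671 nt with 15.2 at 2524, a Tpm2 isoform of 327 nt with 14.1 at 1469, and chr3:130520487-130523996 with 11.6 at 1327. Use1, a SNARE protein, came next with 20.9 at 977.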

How the data were processed

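TIF-seq2 libraries of 12 decay samples were pooled by the authors into 1 table with 1 row per isoform. The deposited coverage is a whole-number count per isoform over all libraries, from which a depth per library cannot be read, and columns holding single-library values number 0. Per the submitters' processing notes, STAR 2.5.3a, UMI-tools 0.5.4, cutadapt 1.16 and bcl2fastq 2.20.0 were used, with the genome build GRCm39. The clustering of ends and the formula and scaling of the half-life were not given in the sources used here.

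Half-lives were used as deposited. Medians, percentiles, ratios and Spearman correlations were computed in Python 3.11.15 with pandas 2.3.3, numpy 2.4.6, scipy 1.17.1 and, for figures, matplotlib 3.10.9. Scripts were tested on simulated data. No test between groups was possible, as no library has a value of its own. Isoforms of 1 strand that share an end form a locus. Overlapping ones were also joined by sharing the last 20 nt of the 5′ UTR or the first 20 nt of the 3′ UTR. Joining ran over all isoforms of the decay table, members or not. Gene names came from an exact match of the first 20 nt of the 5′ UTR to the promoter window of only 1 gene on the same chromosome and strand (RefSeq, GRCm38.p6), which matched 1632 members of 1253 genes. No coordinate was taken from that build, and UTR sequences of the table gave the printed ends.

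Named isoforms, with a coverage of at least 300, were the 10 shortest and longest lived, the 10 most covered, the 5 most covered without UTRs, and the 5 widest and 3 narrowest shared-end groups for each end. These groups were formed after less covered isoforms had been dropped. Of each gene list at most 4 genes were named, from the most covered, longest and shortest lived with a coverage of at least 100. The extreme values at any coverage, the largest groups and the longest spans were added after their values were seen. Members and lists were chosen with earlier results of these data known. Alternatives were other coverage minimums, weighting by coverage, 1 isoform per locus, joined ends and other match lengths.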

Additional observations from a re-analysis of the deposited data

Results flagged for a closer look

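Some rows of the decay table carry counts and were used in no comparison. The 43 mitochondrial isoforms held a summed coverage of 3504, with a median half-life of 7.58 and a highest of 219. The 49 nuclear isoforms with a half-life of 0 or below, of any coverage, held 1458 counts, and the lowest value was -1323. The 135 nuclear isoforms with no half-life held 4161 counts.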

How the results depend on the processing

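The coverage minimum moved most values. With minimums of 21, 60, 100 and 300 the median half-life of all members was 10.6, 11.3, 11.6 and 12.1, the share above 12 was 34.7%, 40.6%, 43.4% and 51.0%, and the ratio of the 95th to the 5th percentile was 3.82, 2.61, 2.33 and 1.92. Weighting by coverage gave 12.4, 58.4% and 1.76, and the most covered isoform of each locus a ratio of 2.66. The SD of log2 half-life within shared 3′ ends was 0.47 at 100 and 0.26 at 300, and within shared 5′ ends 0.40, 0.37 and 0.25 at 60, 100 and 300. Joining ends within 10 nt changed nothing, as no ends lay that close. The Spearman correlation with span was -0.191 at 60, -0.221 at 100 and -0.179 over 1 isoform per locus, and that with coverage 0.230, 0.210 and 0.379. At 60 and 100 the class medians were 11.2 and 11.5 for annotated isoforms, 11.6 and 12.1 for inner starts, 11.2 and 11.6 for inner 3′ ends, 11.8 and 12.1 for both, and 11.6 and 12.2 for members without a UTR. The contractile list had 12.0 over the most covered isoform of each gene. At both minimums inner starts thus stood above annotated isoforms, while their reported median of 10.69 stood below the 10.83 of annotated isoforms. Inner 3′ ends stayed near annotated isoforms: 10.76 against 10.83 as reported, 11.23 against 11.20 at 60 and 11.60 against 11.46 at 100. From a coverage of 300 they had 11.94 against 11.99. Of 84 alternatives 46 left the value within its tolerance, which was the 95% interval of a median, share or correlation and a factor of 1.1 for a spread or ratio, and no correlation changed sign. Among these, 2 kinds were chosen after seeing the data: names by sequence match alone, and the median without values above 24 or below 3 (10.7). No paired analysis was possible because the deposited table holds no value per library. For the same reason the error of any single half-life is unknown.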
